A study of Homo sapiens with 6 samples.

Results

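Levels of 7 genes that encode attractants of macrophages and their monocyte precursors, CCL2, CCL5, CCL20, CCL28, CX3CL1, CXCL16 and MIF, were described in 6 libraries of bladder cancer cells. The genes were chosen by symbol, and the 7 rows that carry these symbols were taken from 50867 genes with values. UM-UC-3 and 5637 are established human bladder cancer cell lines. Cells of each line carried 1 of 3 lentiviral constructs, the control hairpin sh-NC or 1 of 2 hairpins against the long noncoding RNA LNMAT1, sh-LNMAT1#1 (the first hairpin) and sh-LNMAT1#2 (the second hairpin). All 6 cultures had been selected with puromycin for 2 weeks, and no other genotype or treatment is given. Each construct in each line was sequenced once, so a difference between 2 libraries had no replicate check. The comparison of the sh-LNMAT1 libraries with sh-NC addresses whether LNMAT1 affects the chemokines that these cells produce.

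Chemokines are small secreted proteins that attract leukocytes through receptors coupled to G proteins. CCL2 is the main attractant of monocytes and acts through CCR2. CCL5 acts on monocytes and T cells through receptors that include CCR1 and CCR3. CCL20 acts through CCR6 and CCL28 through CCR10 and CCR3, and both are typical products of epithelia. CX3CL1 and CXCL16 are made as membrane proteins and shed by the proteases ADAM10 and ADAM17, and they bind CX3CR1 and CXCR6. MIF is not a chemokine by structure, and binds CD74 together with CD44, CXCR2 or CXCR4.

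Of the 7 members, CCL20, CCL28 and MIF had an entry in the RefSeq promoter table for GRCh38.p14. They had 4 entries in all, and where a gene had more than 1, the entry with the highest end position is shown. The 250 bases before their transcription starts are shown because these genes stand for a chemokine whose level differed widely between libraries, a chemokine near the limit of detection and a cytokine whose level differed little. Capitals mark matches, on either strand, to the TATA box (TATAAA), the GC box (GGGCGG), the AP-1 site (TGANTCA) and the consensus NF-kB site. The CCL20 stretch lies on chromosome 2 from 227813592 to 227813841, plus strand, and ends at the base before the gene start in the deposited table. The MIF stretch lies on chromosome 22 from 23894133 to 23894382, plus strand, and that of CCL28 on chromosome 5 from 43412392 to 43412641, minus strand. The MIF stretch precedes the RefSeq start but lies inside the gene as deposited, which runs from 23894004 to 23895227.
CCL20: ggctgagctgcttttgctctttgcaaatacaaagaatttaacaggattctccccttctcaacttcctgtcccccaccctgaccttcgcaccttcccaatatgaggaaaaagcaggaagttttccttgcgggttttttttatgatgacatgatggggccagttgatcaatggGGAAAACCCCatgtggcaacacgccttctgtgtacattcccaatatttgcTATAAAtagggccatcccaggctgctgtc
MIF: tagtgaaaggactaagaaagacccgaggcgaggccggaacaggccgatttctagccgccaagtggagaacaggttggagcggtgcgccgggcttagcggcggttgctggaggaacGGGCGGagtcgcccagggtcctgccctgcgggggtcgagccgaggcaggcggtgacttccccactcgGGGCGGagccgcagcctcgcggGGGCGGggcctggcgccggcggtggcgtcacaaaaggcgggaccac
CCL28: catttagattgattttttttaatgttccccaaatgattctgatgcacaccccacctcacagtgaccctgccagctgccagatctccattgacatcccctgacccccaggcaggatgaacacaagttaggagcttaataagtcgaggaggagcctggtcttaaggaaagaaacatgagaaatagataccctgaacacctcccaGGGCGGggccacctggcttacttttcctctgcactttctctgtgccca
The CCL20 stretch held 1 TATA box from 29 to 24 bases before the start and 1 NF-kB match, read on the minus strand, from 79 to 70 bases before it. The MIF stretch held 3 GC boxes, and the CCL28 stretch held 1 GC box. None of the 3 held an AP-1 site, and no matches overlapped. Among 35116 RefSeq promoter stretches of this length, 10.7% held the TATA box, 42.6% the GC box, 6.57% the AP-1 site and 9.96% the NF-kB consensus. GC content was 46.8% for CCL20, 70.4% for MIF and 49.2% for CCL28, against a median of 58% over all stretches. A match describes the letters and is not a measured site of binding.

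Values were deposited as FPKM, fragments per kilobase of gene length, scaled to the depth of the library. Depth lay between 19374807 and 24706823 fragments per library. Multiplied by depth and by 1 fixed length per gene, the FPKM came out as whole fragments for nearly all genes, so the fragments behind a value and a 95% counting interval could be read. These intervals, and a floor of 3 fragments, cover counting error only and not the spread between cultures. Across genes, the library labelled 5637 sh-NC had a Pearson correlation of 0.923 to 0.985 with the 3 UM-UC-3 libraries, and of 0.617 and 0.622 with the 5637 libraries of the first and the second hairpin. The 7 epithelial markers gave a sum of 21.3 to 30.9 FPKM in UM-UC-3 and of 26.7 FPKM in the library that carries the label 5637 sh-NC, against 700 and 945 FPKM in the other 5637 libraries. Every change from the 5637 control below therefore also compares libraries that differ in these markers, and whether the control hairpin or the identity of the cells accounts for it cannot be told apart. The 6 urothelial markers summed to at most 4.81 FPKM in UM-UC-3 and the 5637-labelled control and to 23.0 and 22.5 FPKM in the 5637 libraries of the hairpins, where the 6 fibroblast markers, nearly all COL1A1, summed to 8.39 and 6.72 FPKM, against at most 1.007 FPKM elsewhere. Lymphocyte and endothelial markers summed to at most 0.177 and 0.303 FPKM. The part of these markers in the results was not tested. Among the 12 macrophage and monocyte markers, LYZ and FCGR3A were at 0 in all 6 libraries, and PTPRC, the pan-leukocyte CD45, was at 0 in all but 5637 sh-LNMAT1#2, where it was 0.0108 FPKM. ITGAM reached 0.765 FPKM in UM-UC-3 and CD14 0.661 FPKM in 5637. The 1 marker that passed 1 FPKM was CD68, which encodes a lysosomal protein, at 12.97 to 31.0 FPKM in the libraries other than the 5637 libraries of the sh-LNMAT1 hairpins.

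**Figure D1:**
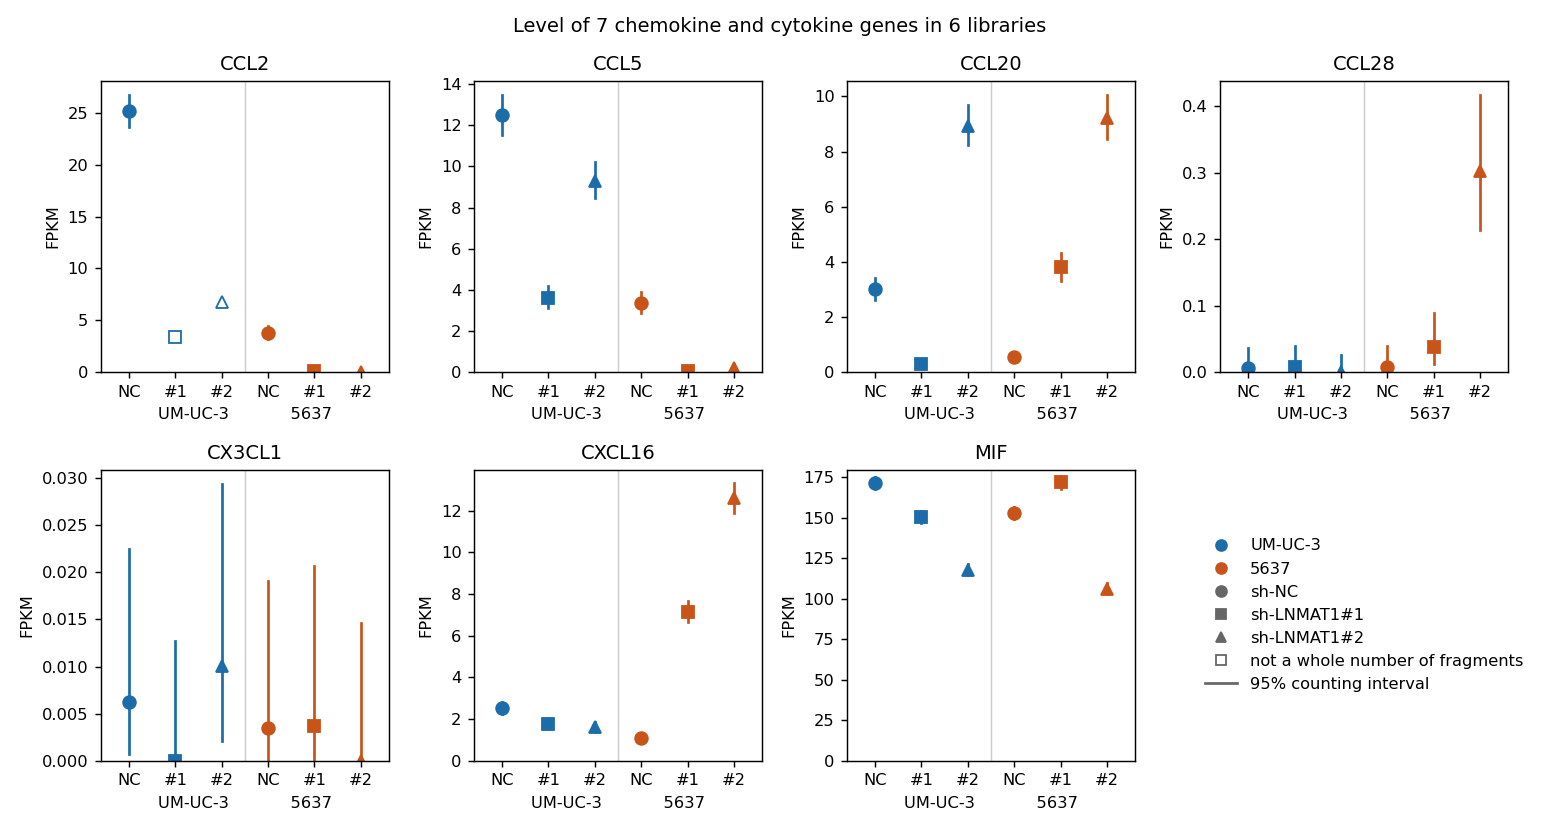
Level in FPKM (linear axes from 0, 1 scale per gene) of the 7 genes in the 6 libraries; bars are 95% counting intervals, and open symbols are the 2 values of CCL2 that were not whole numbers of fragments. CCL2 and CCL5 were highest in UM-UC-3 sh-NC and lowest in the 5637 sh-LNMAT1 libraries, CXCL16 was highest in the latter, and MIF stayed between 106 and 172 FPKM.

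The hairpin target was examined first. LNMAT1 is listed as LINC01296 (ENSG00000244306), at 19284653 to 19337730 on chromosome 14, minus strand, and the same identifier is named DUXAP10 in GENCODE 29. It shares sequence with other copies of its family, so its level is uncertain. LINC01296 stood at 14.2, 6.20 and 6.70 FPKM in UM-UC-3 and at 11.7, 4.70 and 2.14 FPKM in the libraries labelled 5637, control first. LINC01296 was 2.28-fold and 2.11-fold lower in UM-UC-3 with the first and the second hairpin. It was 2.49-fold and 5.47-fold lower in 5637. The target was thus lower with every hairpin than in the sh-NC library labelled with the same line.

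CCL2 (ENSG00000108691) lies on chromosome 17 from 34255218 to 34257203 on the plus strand of GRCh38 and has 4 transcripts in GENCODE 29. UM-UC-3 sh-NC held 25.2 FPKM of CCL2 (counting interval 23.6 to 26.7 FPKM, 1033 fragments), and the UM-UC-3 libraries of the first and the second hairpin held 3.36 and 6.78 FPKM. The library labelled 5637 sh-NC held 3.78 FPKM (3.18 to 4.46 FPKM, 141 fragments), and 5637 held 0.0578 FPKM (2 fragments) with the first hairpin and 0 with the second. In these bulk libraries, fewer cells that express a gene and less RNA per cell cannot be told apart. UM-UC-3 sh-NC stood above the other 5 libraries, and the 2 libraries of 5637 cells with sh-LNMAT1 stood below the rest. CCL2 was 7.49-fold and 3.71-fold lower than sh-NC in UM-UC-3 with the first and the second hairpin. In 5637 the ratio was 65.4-fold lower with the first hairpin (counting interval 17.8-fold to 545-fold), and with the second hairpin CCL2 was at least 40.6-fold lower, taking the floor of 3 fragments in that library, or at least 32.6-fold by the counting interval. The library labelled 5637 sh-NC held 6.65-fold less CCL2 than UM-UC-3 sh-NC (5.58-fold to 7.99-fold).

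Of the values of CCL2, the UM-UC-3 values with the first and the second hairpin were not whole numbers of fragments. At a length of 1662 bases the other values gave 1033, 141 and 2 fragments, and these gave 124.39 and 258.59. Of 12712 genes averaging 1 FPKM or more whose fragments could be read, 12698 were whole in every library at a length of up to 40000 bases, 12 of the other 14 were whole at a longer length, and the remaining 2 were CCL2 and LINC01296. For LINC01296 the value with the first hairpin in UM-UC-3 came to 1174.03 fragments at a length of 8505 bases, 0.03 from a whole number. With the tolerance widened from 0.01 to 0.05 fragments, a setting added after the data were seen, both genes could be read as whole, CCL2 at a length of 129660 bases. The 4 transcripts of CCL2 sum to 3465 bases. In the tests of the search, the tolerance of 0.05 found 3 of 99 genes whose values had been moved off whole numbers. The wider setting therefore cannot decide whether a value is whole. The tolerance of 0.01 found 44 of the 99, so other genes with values that were not whole may have been missed. The cause of the values that were not whole was not tested. No counting interval is given for them, and each comparison of CCL2 with UM-UC-3 hairpin libraries, the pooled fit, the interaction and the contrast of the lines included, rests on them.

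CCL5 (ENSG00000271503) lies on the same chromosome, from 35871491 to 35880793 on the minus strand. Taking the control, the first and the second hairpin in turn, UM-UC-3 held 12.5, 3.62 and 9.31 FPKM of CCL5. The 5637 libraries held, in that order, 3.35, 0.0677 (3 fragments) and 0.194 FPKM (8 fragments). The libraries kept nearly the order of CCL2, but the second hairpin left CCL5 closer to its control in UM-UC-3. CCL5 was 3.44-fold lower than sh-NC in UM-UC-3 with the first hairpin (2.91-fold to 4.10-fold) and 1.34-fold lower with the second hairpin (1.19-fold to 1.51-fold). In 5637 it was 49.4-fold lower with the first hairpin (16.6-fold to 242-fold) and 17.3-fold lower with the second hairpin (8.56-fold to 40.7-fold). Within UM-UC-3 the hairpins differed 2.57-fold (2.15-fold to 3.08-fold). The intervals of UM-UC-3 sh-LNMAT1#1, 3.10 to 4.21 FPKM, and of the library labelled 5637 sh-NC, 2.85 to 3.91 FPKM, overlapped.

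CCL20 (ENSG00000115009), an attractant of CCR6-bearing cells, lies on chromosome 2 from 227813842 to 227817564 on the plus strand. From control to first to second hairpin, CCL20 stood at 2.997, 0.301 and 8.94 FPKM in UM-UC-3. It stood at 0.534, 3.80 and 9.23 FPKM in the libraries labelled 5637. The hairpins moved apart in UM-UC-3, where CCL20 was 9.97-fold lower with the first hairpin (6.22-fold to 16.9-fold) and 2.98-fold higher with the second hairpin (2.54-fold to 3.51-fold). The level with the second hairpin was 29.7-fold that with the first hairpin in UM-UC-3 (18.9-fold to 49.8-fold) and 2.43-fold in 5637 (2.07-fold to 2.86-fold). Among all genes kept, 4.22% in UM-UC-3 and 1.15% in 5637 were at least 2-fold higher with the second hairpin than with the first. In 5637 CCL20 was 7.11-fold higher than in the library labelled sh-NC with the first hairpin (4.94-fold to 10.5-fold) and 17.3-fold higher with the second hairpin (12.2-fold to 25.2-fold). The highest libraries, sh-LNMAT1#2 in either line, had overlapping intervals of 8.23 to 9.70 and 8.44 to 10.1 FPKM.

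CXCL16 (ENSG00000161921), the membrane-bound ligand of CXCR6 and a scavenger receptor for oxidized lipids, lies on chromosome 17 from 4733526 to 4739922 on the minus strand. The UM-UC-3 values were 2.52 FPKM for the control, 1.77 FPKM for the first hairpin and 1.61 FPKM for the second. The corresponding 5637 values of CXCL16 were 1.11, 7.15 and 12.6 FPKM. CXCL16 ran opposite to CCL2 and CCL5 between the sh-LNMAT1 libraries of the 2 lines. In UM-UC-3 it was 1.42-fold lower with the first hairpin (1.18-fold to 1.71-fold) and 1.57-fold lower with the second hairpin (1.30-fold to 1.90-fold). In 5637 it was 6.43-fold higher than in the library labelled sh-NC with the first hairpin (5.30-fold to 7.85-fold) and 11.3-fold higher with the second hairpin (9.40-fold to 13.8-fold). The library labelled 5637 sh-NC was the lowest of the 6, below each UM-UC-3 library.

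MIF (ENSG00000240972), a cytokine that holds macrophages at the site where it is released, lies on chromosome 22 from 23894004 to 23895227 on the plus strand. It was the highest of the 7 genes in every library. MIF stood at 172 FPKM in the UM-UC-3 control, 150.2 FPKM with the first hairpin and 118 FPKM with the second. Libraries labelled 5637 had 153, 172 and 106 FPKM in the same order. The highest and lowest libraries differed 1.62-fold, against 184-fold for CCL5, 30.7-fold for CCL20 and 11.3-fold for CXCL16. With the second hairpin it was 1.46-fold lower than sh-NC in UM-UC-3 (1.41-fold to 1.51-fold) and 1.44-fold lower in 5637 (1.38-fold to 1.49-fold). The length behind each FPKM had a median of 2.23 times the longest transcript of the gene in GENCODE 29, so that FPKM ranks genes only on that length.

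CCL28 (ENSG00000151882), on chromosome 5 from 43376645 to 43412391 on the minus strand, and CX3CL1 (ENSG00000006210), on chromosome 16 from 57372458 to 57385048 on the plus strand, were near the limit of detection. CCL28 had at most 1 fragment in each UM-UC-3 library and in the library labelled 5637 sh-NC. It had 5 fragments, 0.0381 FPKM, in 5637 sh-LNMAT1#1 and 37 fragments, 0.303 FPKM, in 5637 sh-LNMAT1#2. Within 5637 the second hairpin gave 7.95-fold more CCL28 than the first (3.12-fold to 25.9-fold). CX3CL1 had 0 to 3 fragments in every library, at or under the floor, so no ratio is given.

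**Figure D2:**
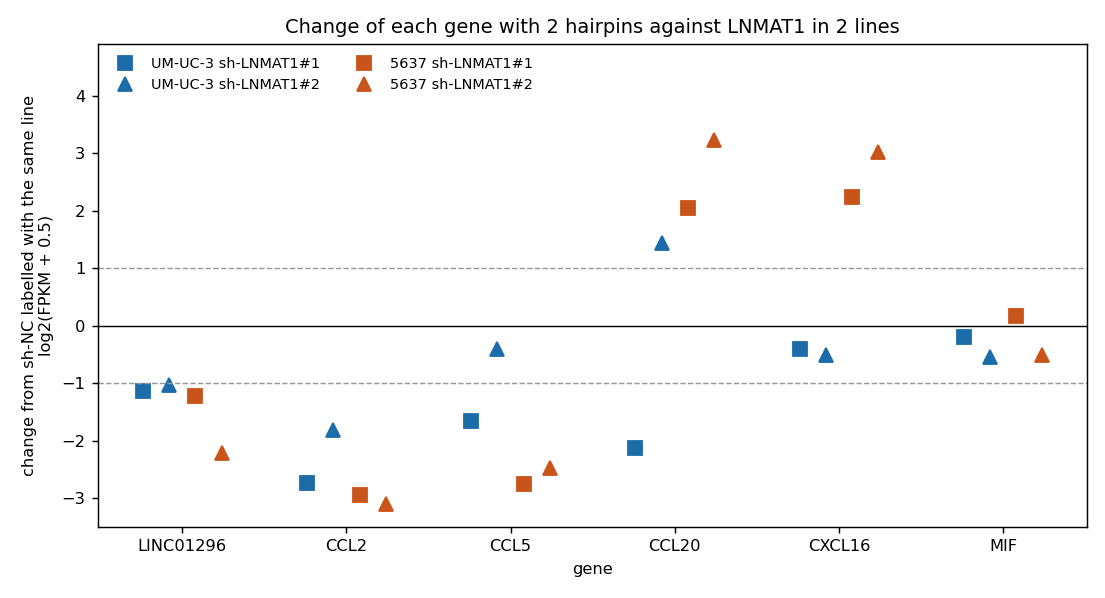
Change of LINC01296 and of the 5 genes averaging 1 FPKM or more, as the difference of log2(FPKM + 0.5) between each sh-LNMAT1 library and the sh-NC library labelled with the same line (1 point per hairpin and line, dashed lines at 2-fold). CCL2 lies below the lower dashed line in all 4 comparisons, whereas CCL20 and CXCL16 lie above the upper one in 5637 alone for both hairpins.

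For counts, a change meant a difference of 2-fold or more from the control, in 1 direction for both hairpins of a line, on the scale of log2(FPKM + 0.5). Genes under a mean of 1 FPKM over the line's libraries were left out. On this scale the change of low genes is understated. In each line 5 of the 7 members were kept. In UM-UC-3, CCL2 was lower by this rule, with log2 changes of -2.73 and -1.82, and no member was higher. Over all genes kept in UM-UC-3, 0.358% were lower and 1.08% higher. In 5637, CCL2 (log2 changes of -2.94 and -3.10) and CCL5 (-2.76 and -2.47) were lower, and CCL20 (2.05 and 3.23) and CXCL16 (2.25 and 3.02) were higher. There 12.3% of all genes were lower and 18.5% higher. CCL2 and CCL5 passed the filter for 5637 only through the library labelled sh-NC, and CCL20 only through the sh-LNMAT1 libraries. The filter thus fixed the direction of these calls, and they are a description. With the first hairpin alone, CCL2, CCL5 and CCL20 were at least 2-fold lower in UM-UC-3, where 5.30% of all genes were, and no member was 2-fold higher, where 5.55% were. With the second hairpin alone, CCL2 was lower and CCL20 was higher, against 1.41% and 2.10% of all genes.

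Both lines were then pooled to ask whether a member differed between the 4 sh-LNMAT1 and the 2 sh-NC libraries beyond the spread that remained. No gene passed limma with Benjamini-Hochberg adjustment, with 0% called higher and 0% called lower of 12716 genes, while 811 had an unadjusted p under 0.05. The pooled log2 change of CCL2 was -2.65 (SE 0.36, limma unadjusted p = 3.23e-04, adjusted p = 0.569), with lower values in 4 of 4 comparisons. That of CCL5 was -1.82 (SE 0.51, adjusted p = 0.569), also lower in 4 of 4. CCL20, at 1.15 (SE 1.15), CXCL16, at 1.09 (SE 0.70), and MIF, at -0.27 (SE 0.29), had adjusted p-values of 0.688, 0.592 and 0.705. Without UM-UC-3 sh-NC, when the effect comes from 5637 alone, the same fit gave CCL2 -3.02 (adjusted p = 0.0063), CCL5 -2.62 (adjusted p = 0.0199) and CXCL16 2.63 (adjusted p = 0.0068), and called 2028 genes higher and 1919 lower. The control arm is then the 1 library labelled 5637 sh-NC, which is assumed to vary as the pairs of hairpins do, and no spread between controls enters these p-values. Without the library labelled 5637 sh-NC the values were -2.28, -1.03 and -0.46 (adjusted p of 0.713, 0.843 and 0.854 in limma).

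The difference of the knockdown effect between the lines was tested as an interaction in limma with 2 residual degrees of freedom. These come from the differences between the hairpins, and the 1 control library of each line is assumed to vary likewise. CXCL16 was the 1 member called, with an effect more positive by 3.10 in 5637 than in UM-UC-3 (log2, SE 0.54, adjusted p = 0.0188), where 10% of all genes were called in that direction and 8.79% in the other. CCL2 (-0.74, SE 0.60), CCL5 (-1.59, SE 0.76), CCL20 (2.99, SE 2.01) and MIF (0.19, SE 0.51) had adjusted p-values of 0.408, 0.193, 0.329 and 0.811 in limma. The values of the low genes depended on the pseudocount. CCL2 gave -2.58 (limma adjusted p = 0.0737) with a pseudocount of 0.1 and -0.05 (adjusted p = 0.954) with 1, and CCL5 gave -2.87 (adjusted p = 0.0899) and -0.98 (adjusted p = 0.344). This test uses the library labelled 5637 sh-NC.

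A comparison that leaves out that library set the 2 sh-LNMAT1 libraries of 5637 against the 2 of UM-UC-3. CCL2 was lower in 5637, with a log2 difference of -3.33 (SE 0.35, limma adjusted p = 0.0018) and so was CCL5, with -3.34 (SE 0.44, adjusted p = 0.0040). Both were at most 0.194 FPKM in the 5637 sh-LNMAT1 libraries and passed the filter through the other libraries alone. Their direction was thus fixed by the filter, and these calls are a description. The UM-UC-3 arm of CCL2 consists of the 2 values that were not whole. CXCL16 was higher in 5637 by 2.20 (SE 0.31, adjusted p = 0.0048). In this contrast 19.1% of all genes were lower and 18.5% higher. CCL20, at 1.23 (SE 1.16), and MIF, at 0.02 (SE 0.29), had adjusted p-values of 0.440 and 0.958. Without 5637 sh-LNMAT1#2 the differences were -3.25 for CCL2, -3.49 for CCL5 and 1.81 for CXCL16 (limma adjusted p of 0.0510, 0.0692 and 0.0684), and without 5637 sh-LNMAT1#1 that of CCL5 was -3.20 (adjusted p = 0.0849). These fits have 1 residual degree of freedom, and the lone library of an arm is assumed to vary like the other arm. Without UM-UC-3 sh-LNMAT1#1 the difference of CCL20 was -0.55 (limma adjusted p = 0.504), and without UM-UC-3 sh-LNMAT1#2 it was 3.01 (adjusted p = 0.0369). With the low genes left in, CCL5 and CXCL16 had adjusted p-values of 0.0574 and 0.0520 from limma. Each line contributed 1 library per hairpin, so the p-values measure the spread between 2 hairpins, which may be technical in part.

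Over the 5 members that reached a mean of 1 FPKM, the library labelled 5637 sh-NC lay closest to UM-UC-3 sh-LNMAT1#1, with a root mean square difference of 0.29 on the scale of log2(FPKM + 0.5). It lay 1.65 from UM-UC-3 sh-NC and 1.60 from UM-UC-3 sh-LNMAT1#2. Its distance was 2.26 to 5637 sh-LNMAT1#1 and 2.67 to 5637 sh-LNMAT1#2.

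The pattern of each gene across the libraries was compared with that of CCL2, by the root mean square difference of log2(FPKM + 0.5) after each gene was centred on its own mean. Over 12715 genes the median difference was 2.00. CCL5 differed from CCL2 by 0.48, the second smallest value, and ordered 13 of the 15 library pairs as CCL2 did, 3 of 3 within UM-UC-3 and 2 of 3 within 5637. At least 13 pairs were ordered so by 10.8% of genes. MIF differed by 1.94 (9 of 15 pairs), CCL20 by 2.73 (6 of 15) and CXCL16 by 2.93 (4 of 15). Within 5637, CCL20 and CXCL16 ordered 0 of 3 pairs as CCL2 did. LINC01296 differed by 1.37 and ordered 14 of 15 pairs as CCL2 did. It ranked 699 in difference, and 4.91% of genes ordered at least 14 pairs so. All these patterns share 6 libraries that include the 2 values of CCL2 that were not whole. The order of the 5637 sh-LNMAT1 libraries rests on 2 and 0 fragments of CCL2 and on 3 and 8 of CCL5. Both orders are within counting error.

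The 5 genes with a symbol whose pattern was most like that of CCL2 were MMP9, CCL5, NOCT, KLHL4 and CD70, with differences of 0.41, 0.48, 0.50, 0.51 and 0.56. MMP9, a secreted gelatinase, was 12.9, 2.08 and 2.80 FPKM in UM-UC-3 with sh-NC, the first and the second hairpin. The 5637 libraries held 2.67, 0.0206 and 0 FPKM of MMP9 in that order. NOCT, which encodes nocturnin, a phosphatase under circadian control, ran from 0.884 to 26.6 FPKM, KLHL4 from 0.00783 to 10.9 FPKM and CD70, the ligand of CD27, from 0.335 to 13.2 FPKM. MMP9, NOCT and KLHL4 ordered 15 of 15 pairs as CCL2 did, which 1.08% of genes did. With a pseudocount of 0.1, or with a filter of 5 FPKM, 2 of these 5 genes remained among the 5, and without UM-UC-3 sh-NC 1 remained.

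**Figure D3:**
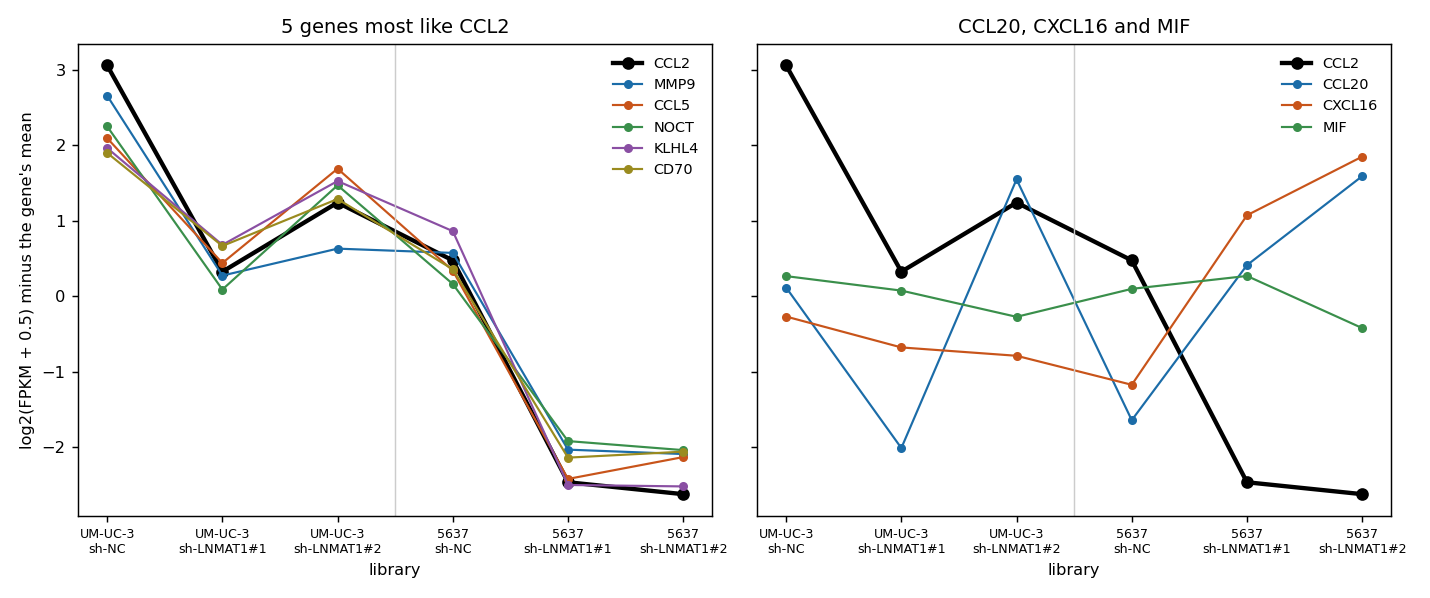
Each gene's log2(FPKM + 0.5) minus its own mean over the 6 libraries, for CCL2 (black) with the 5 genes most like it (left) and with CCL20, CXCL16 and MIF (right). The lines of the left panel fall in the 5637 sh-LNMAT1 libraries with CCL2, whereas CXCL16 is higher in both of these libraries than in the other 4 and CCL20 is highest in 5637 sh-LNMAT1#2.

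Of 32 symbols of CC chemokines and the other ligands of this kind, 30 were in the table, 6 of them at 0 in all 6 libraries, and 6 reached a mean of 1 FPKM. These 6 were CCL2, CCL5, CCL20, CXCL16, MIF and DDT, the paralog of MIF, at 8.18 to 16.1 FPKM. CCL7, the neighbour of CCL2 that shares its receptor CCR2, was 0.336, 0.131 and 0.340 FPKM in UM-UC-3, control first, and it had 2, 0 and 0 fragments in 5637. CCL3, CCL4 and their copies stayed under 0.43 FPKM, and CCL8 and CCL13 were at 0 in every library.

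CCR6 was at 0 in all 6 libraries, and CCR1, CCR2, CCR3 and CX3CR1 were at or below 0.370 FPKM. CCR10 was at 0.0877 to 0.627 FPKM and CXCR6 at 0.0126 to 0.255 FPKM. CD44, a hyaluronan receptor and partner of CD74 in MIF signalling, was 24.6, 21.8 and 21.9 FPKM in the UM-UC-3 libraries and 19.0, 6.30 and 18.9 FPKM in those of 5637, each in the order control, first hairpin, second hairpin. CD74 was at most 0.146 FPKM. Of 18 receptor symbols 2 reached a mean of 1 FPKM, CD44 and ACKR3, an atypical receptor that takes up CXCL12 and binds MIF, which was 13.2 and 38.9 FPKM in the 5637 sh-LNMAT1 libraries, through which it passed the filter, and at most 0.446 FPKM in the other 4.

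The list of genes for processing and release held 11 symbols, with 7 of them above the filter for UM-UC-3 and 8 for 5637. By the 2-fold rule 0 changed in UM-UC-3, where 0.358% of all genes were lower and 1.08% higher. The 5637 count was 4 lower and 0 higher, against 12.3% and 18.5% of all genes. ADAM17, one of the sheddases of CX3CL1 and CXCL16, was 30.5, 14.8 and 14.3 FPKM in the 5637 control, first and second hairpin. ADAM10, the other, was 7.68, 10.4 and 14.8 FPKM in the same libraries. SDC4, a heparan sulfate proteoglycan that holds chemokines at the cell surface, was 186, 42.0 and 71.7 FPKM there, and the lysosomal protease CTSB was 47.1, 12.8 and 10.9 FPKM.

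Of 19 regulators of CCL2 and CCL5 transcription 18 were kept, of which 0 changed in UM-UC-3 by the 2-fold rule, and 2 were lower and 4 higher in 5637. These counts are near the shares of all genes, 0.358% lower and 1.08% higher in UM-UC-3 and 12.3% and 18.5% in 5637. JUN, a subunit of AP-1, was 239, 473 and 289 FPKM in UM-UC-3 with sh-NC, the first and the second hairpin, and 592, 50.5 and 43.0 FPKM in 5637. KLF13, an activator of CCL5 in T cells, was 4.08, 0.905 and 0.413 FPKM in the 5637 libraries. It passed the filter for 5637 through the library labelled sh-NC alone, so its place among the 2 lower in 5637 was fixed by the filter. TNFAIP3, an inhibitor and target of NF-kB, was 1.51, 35.3 and 36.2 FPKM there, IRF1 was 1.17, 8.97 and 7.58 FPKM, and HIF1A was 49.6, 101 and 109 FPKM. Between the sh-LNMAT1 libraries of the 2 lines, limma called 3 of the 18 higher in 5637 (TNFAIP3, IRF3 and HIF1A) and 7 lower. The 7 included JUN and KLF13. Over all genes, 18.5% were called higher and 19.1% lower in this contrast. The list median was -0.04 against -0.05 over all genes.

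Of 9 inducers of CCL2 and CCL5, 2 passed the filter for UM-UC-3, where 0 changed by the 2-fold rule, against 0.358% of all genes lower and 1.08% higher. The 4 that passed it for 5637, IL1A, IL1B, PDGFA and PDGFB, did so through the sh-LNMAT1 libraries, so that their being higher there was fixed by the filter and their levels are a description. IL1A, an alarmin of epithelial cells, was 257 and 304 FPKM in the 5637 sh-LNMAT1 libraries and at most 0.444 FPKM in the other 4. IL1B was 94.8 and 118 FPKM there and at most 0.470 FPKM in the others. PDGFA and PDGFB, growth factors for mesenchymal cells, were 3.79 and 5.17 FPKM and 2.14 and 3.61 FPKM there.

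Among 17 other attractants of monocytes and macrophages, 0 changed in UM-UC-3 of 6 kept, where 0.358% of all genes were lower and 1.08% higher. In 5637, 1 was lower and 5 were higher of 10 kept, where 12.3% of all genes were lower and 18.5% higher. C3, SAA1 and SAA2 passed the filter through the sh-LNMAT1 libraries alone, so their place among the 5 was fixed by it. C3, the central complement component, was 113 and 153 FPKM in the 5637 sh-LNMAT1 libraries and at most 0.861 FPKM in the other 4. The acute-phase genes SAA1 (55.0 and 66.1 FPKM) and SAA2 (7.90 and 7.51 FPKM) were likewise at most 0.317 FPKM elsewhere. CKLF, a chemokine-like factor, was 13.4, 6.29 and 5.31 FPKM in the 5637 libraries, control first. GAS6, a ligand of TAM receptors on macrophages, was 4.83, 11.6 and 10.4 FPKM in these libraries.

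**Figure D4:**
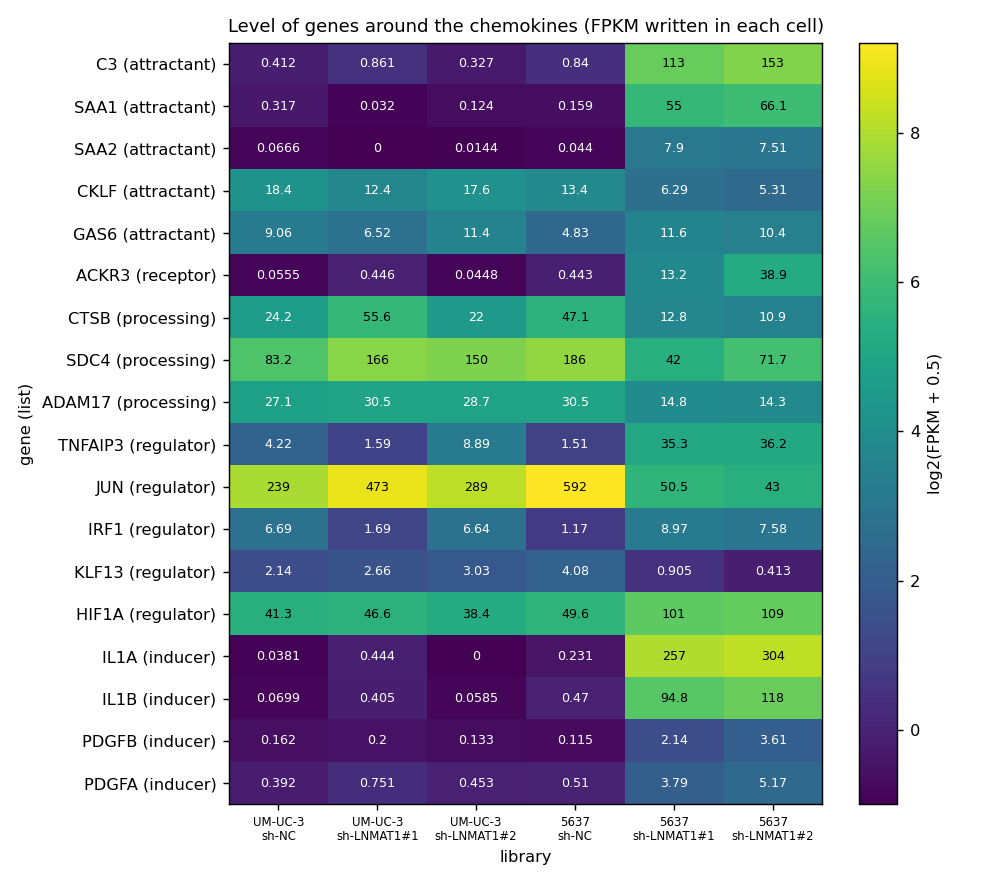
FPKM (written in each cell) of 18 genes from the lists of attractants, receptors, processing, regulators and inducers in the 6 libraries, coloured by log2(FPKM + 0.5). IL1A, at 257 and 304 FPKM in the 5637 sh-LNMAT1 libraries (last 2 columns), stands at or under 0.444 FPKM in the 4 columns to their left.

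The genes around CCL2 and CCL5 on chromosome 17 were examined for like changes. Within 500 kb of the start of CCL2 lay 23 other genes, of which 12 were at 0 in all libraries and 1 reached a mean of 1 FPKM, the pseudogene TLK2P1, at 3.37 to 6.46 FPKM. TLK2P1 was not changed 2-fold in either line. Around CCL5 lay 65 genes, of which 13 were kept. In UM-UC-3, 1 was lower and 0 were higher, against 0.358% lower and 1.08% higher of all genes. In 5637, 3 were lower and 3 higher, against 12.3% lower and 18.5% higher of all genes. The gene lower in both lines was RP11-686D22.7, near SLFN12 and 471 kb from the start of CCL5, with log2 changes of -2.29 and -1.37 in UM-UC-3 and of -1.69 and -1.75 in 5637. It passed the filter for 5637 through the library labelled sh-NC alone, so its direction in 5637 was fixed by the filter. RASL10B (9.30 and 8.05 FPKM) and the metalloprotease MMP28 (4.84 and 6.46 FPKM) were present in the 5637 sh-LNMAT1 libraries and at most 0.0378 FPKM in the other 4, and they passed the filter through the former alone. TAF15, 16.2 kb away and the nearest kept gene, was 13.3, 17.4 and 18.4 FPKM in UM-UC-3 and 14.9, 30.1 and 29.4 FPKM in 5637, and AP2B1 stayed between 28.8 and 39.7 FPKM.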

How the data were processed

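RNA of 6 libraries, 1 per construct and cell line, had been prepared with a stranded mRNA kit, and the submitters' processing notes name HISAT2 and hg38. The deposited values are FPKM, made by the authors, in 1 table of genes, and the counting program and annotation are not given in the sources used here. Of 50869 lines, the 2 that hold the broken record of TGFB1 were left out, and 50110 of 50867 identifiers were found in GENCODE 29. Samples were grouped by title.

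Depth was read from genes with a single exon, and fragments as the smallest whole length, from 200 to 40000 bases and then to 200000, at which all values of a gene were whole within 0.01 fragments plus a minute share of the value. This search and its tolerance were set after the values were seen and were changed several times. In tests on simulated data, allowing longer lengths made the search miss more values that were not whole. Counting intervals are exact (Poisson, or Clopper-Pearson for ratios, 95%).

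Changes were differences of log2(FPKM + 0.5) among genes averaging 1 FPKM or more, with no test for a single library and limma 3.58.1 (R 4.3.3, trend) otherwise, called at a Benjamini-Hochberg adjusted p under 0.05. Covariates were the cell line in the pooled fit and the interaction in the second. Python 3.11.15 with numpy 2.4.6, pandas 2.3.3 and scipy 1.17.1 was used. The fits and the search were tested on simulated data.

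The members and lists were chosen with earlier results of these data known. Genes named were the members, LINC01296, up to 5 per list with the widest range among those changed 2-fold in a line, receptors of the members, the 5 genes most like CCL2 and kept neighbours. The other genes given with values (CCL3, CCL4, CCL7, CCL8, CCL13, DDT, ADAM10 and cell type markers) were added by name, and calls of other list genes are given by name alone. Some list genes are not reported here. Alternatives were pseudocounts, filters, thresholds, single hairpins, 75th-percentile scaling, limma without trend, no line covariate and leaving out each library.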

Additional observations from a re-analysis of the deposited data

Results flagged for a closer look

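CXCL16 was flagged because its change with the hairpins differed between the lines, by an interaction of 3.10 on the log2 scale (limma adjusted p = 0.0188), with lower values in 2 of 2 comparisons in UM-UC-3 and higher values in 2 of 2 in 5637. Under the pseudocounts of 0.1 and 1, 75th-percentile scaling and no trend it was 2.71 to 3.54 with adjusted p-values of 0.0172 to 0.0223 from limma, and under the filter of 5 FPKM it was not tested. The value uses the library labelled 5637 sh-NC, whose epithelial markers summed to 26.7 FPKM, within the range of UM-UC-3, and whose CXCL16, at 1.11 FPKM, lay below that range, and the part of this library in the difference was not tested.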

How the results depend on the processing

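Comparisons with sh-NC have no paired fit, since all replicate numbers are 1 and no construct was repeated within a line. In the contrast of the sh-LNMAT1 libraries, the hairpin number as a replicate block gave CCL2 -3.33 (limma adjusted p = 1.57e-04) and called 2507 genes higher and 2636 lower, and no member changed its call.

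Members lower in UM-UC-3 numbered 0 at 4-fold and 3 with sh-LNMAT1#1 alone, and 1 was higher with sh-LNMAT1#2 alone. Among genes averaging 5 FPKM or more, 0 were lower and 1 was higher in 5637, since fewer genes were tested. Under that filter the interaction called 420 higher and 469 lower (1271 and 1118 as reported) and the contrast of the sh-LNMAT1 libraries 931 and 1260 (2349 and 2430). Leaving out 1 library, the pooled fit called 0 to 2028 genes higher and 0 to 1919 lower, with CCL2 at -3.02 to -2.28, CCL20 at -0.35 to 2.64 and CXCL16 at -0.46 to 2.63, and the contrast called 781 to 2600 higher and 464 to 2572 lower, with CCL2 at -3.78 to -2.87, CCL20 at -0.55 to 3.01 and MIF at -0.32 to 0.37. In UM-UC-3 alone the pooled CCL20 was -0.35 and CXCL16 -0.46. The contrast of MIF, 0.02 as reported, was -0.0089 under 75th-percentile scaling and -0.099 with UM-UC-3 sh-NC added. Of the 5 genes most like CCL2, 2 remained at a pseudocount of 0.1, 2 at 5 FPKM and 1 to 5 without 1 library. Within 1000 kb of CCL5, 5 genes were higher in 5637, where 18.5% of all genes were. Where a cause is not stated, it was not tested.

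Under 4 other tolerances, chosen after seeing the data, CCL2 and LINC01296 were not whole in 3. At 0.05 fragments both were read as whole, leaving 0 genes that were not. That tolerance found 3 of 99 genes with moved values in the tests of the search, against 44 of 99 at 0.01, so it cannot decide this. At 2, 3 and 8 fragments, CCL2 and CCL5 in 5637 were limited by depth.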
